A study of Mus musculus with 6 samples.

Results

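The 7 genes described here encode membrane proteins that bring myoblasts together: Mymk and Mymx, which carry out fusion itself, the promyogenic receptors Cdon, Boc and Neo1, and the adhesion molecules Jam2 and Jam3. They were taken by gene symbol from the annotated array table, where all 7 were found, as 7 of 20163 genes with a symbol and as 8 of 34760 probe sets. Cdon alone had a further probe set, and for it the probe set with the highest mean over 6 arrays is called the first. The cells were adult muscle stem cells, which rebuild skeletal muscle, from female C57BL/6J mice 6 to 8 weeks old. After 2 days of expansion on Matrigel all cultures spent 6 h in serum-free medium holding 200 ng/ml of ALK3-Fc, a receptor fragment that captures BMPs. BMP6, a bone morphogenetic protein, was then given for 1 h at 100 ng/ml to 3 cultures, and its solvent alone, called vehicle here, to the other 3, with 1 array for each. No genetic change is named in the labels. The series title asks whether BMPs act directly on genes of the Notch pathway, and here the same early time point is read for fusion genes. A further comparison asks how far these genes differed between the biological replicate numbers 1, 2 and 3 of the sample titles.

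Muscle fibres form when single myoblasts leave the cell cycle, recognise one another and merge into a syncytium. Recognition uses cadherins and immunoglobulin-type receptors, among them Cdon and Boc, which signal through p38 MAP kinase to the myogenic factor MyoD, while the merging of membranes needs myomaker (Mymk) and the micropeptide myomixer (Mymx). BMP signalling through SMAD1, SMAD5 and SMAD9 is known to hold back differentiation of muscle stem cells, partly through the Id proteins.

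Values are log2 RMA expression, on which a difference of 1 is a 2-fold difference. A gene was called at a limma adjusted p under 0.05 over all genes. Array medians lay between 6.02 and 6.10, and all pairs of arrays correlated at 0.986 or more over the probe sets. Pax7, the factor that defines muscle stem cells, stood at 8.75 to 8.94 and Myod1 at 12.05 to 12.30 over the 6 arrays, and 9 of 10 muscle stem cell markers lay above the median of all gene means (6.41). Above it also lay 5 of 6 myofibre, 5 of 9 fibro-adipogenic, 2 of 9 endothelial and 1 of 7 immune markers. Known BMP targets were higher with BMP6 in every pair: Id1, an inhibitor of MyoD-type factors, stood at 11.27 to 11.35 in BMP6 and 9.61 to 9.92 in vehicle, and Smad7, which shuts off the receptors, at 8.97 to 9.09 and 7.17 to 7.37. All 7 genes had mean levels above those of 166 olfactory and vomeronasal receptor genes, which muscle is not known to use and whose highest mean was 5.88. Probe sets differ in brightness, so levels are not ranked between genes.

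By their source names the BMP6 samples came from mice 1, 2 and 3 and the vehicle samples from mice 1, 2 and 2. For the third vehicle sample, title (number 3) and source name (mouse 2) therefore differ. Headers of the deposited columns carry a code shared by the samples of each replicate number, the third pair included, whose meaning is not stated. Over all genes, the deviations of this array from its group mean correlated at 0.434 with those of BMP6 replicate 3 and at 0.0197 with those of BMP6 replicate 2. Vehicle replicate 2 also correlated at only 0.0475 with BMP6 replicate 2, so these values cannot decide the mouse. Results are given by the number of the title, and with the mouse of the source names where that changes a call. With that mouse in place of replicate number, limma's F test and pairwise differences called 0 of all genes (1092 at an unadjusted p under 0.05 in the F test), so every call between replicate numbers below holds by title only.

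Of the 7 genes, 0 were called between BMP6 and vehicle, against 17 of all genes (0.0843%). At an unadjusted p under 0.05 there was 1, Cdon, against 3.17% of all genes. Cdon was also the only member whose groups did not overlap, against 7.71% of all genes, and 3.84% had BMP6 wholly above vehicle. Between replicate numbers 1 of the 7 was called, Mymk, against 79 of all genes (0.392%).

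**Figure D1:**
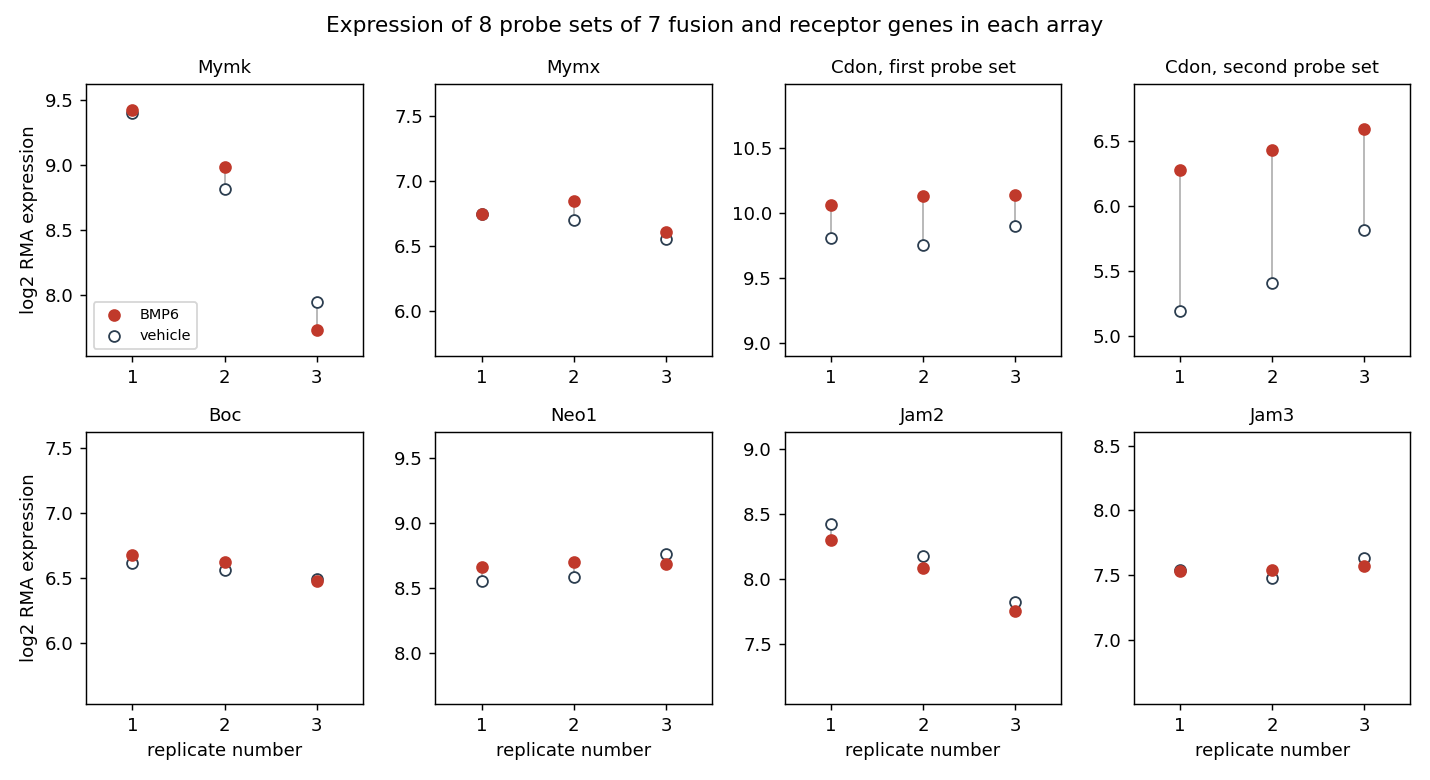
Log2 RMA expression of the 8 probe sets in each array, by replicate number (x axis). Filled points are BMP6, open points vehicle, grey lines join samples of 1 replicate number, and every panel spans the same range. The Mymk points run from 9.43 down to 7.73 with the pairs close together, while both Cdon panels have BMP6 above vehicle in each pair.

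Mymk, the multi-pass protein of the myoblast surface without which vertebrate muscle cells do not fuse, differed between replicate numbers, with no call between BMP6 and vehicle. Its BMP6 arrays read 9.43 (replicate 1), 8.99 (replicate 2) and 7.73 (replicate 3), and its vehicle arrays, in the same order, 9.40, 8.82 and 7.94. Both arrays of replicate 1 were the highest and both of replicate 3 the lowest, and the treatment groups overlapped almost completely. Replicate 1 lay 2.99-fold above replicate 3 (log2 difference 1.58, SE 0.11, limma adjusted p = 0.000129) and replicate 2 lay 2.09-fold above it (1.07, SE 0.11, adjusted p = 0.00643). Replicates 1 and 2 differed by 0.51 (SE 0.11), which did not pass (adjusted p = 0.187). Of all genes 0.531% were called between replicates 1 and 3, 0.0645% between 2 and 3 and 0.134% between 1 and 2. In the F test of all 3 numbers the adjusted p was 0.000422, the eighth lowest p of 20163 genes. Only 0.104% of genes ranged as widely over the 6 arrays. In such bulk samples, fewer cells of a type and less RNA per cell cannot be told apart. Mymk was not called with the mouse of the source names in place of replicate number (adjusted p = 0.345; 0 of all genes were called), in the fit over all probe sets (0.306) or between numbers 1 and 2 alone (0.155).

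Between the treatments Mymk differed by -0.0075 on the log2 scale, with a 95% interval of 0.510-fold to 1.94-fold. With replicate number as a block, a fit that called 0.144% of all genes and again 0 of the 7, the interval was 0.869-fold to 1.14-fold. Within replicates 1, 2 and 3 the BMP6 sample differed from vehicle by 0.02, 0.17 and -0.22, so the sign was not shared by the pairs. The sign also turned in 5 of 17 alternative settings, none of which gave a call.

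Mymx, the short protein that acts with myomaker to open the fusion pore, was far steadier. It stood at 6.75, 6.85 and 6.61 in BMP6 and at 6.75, 6.70 and 6.55 in vehicle, a range of 0.30 over the 6 arrays where that of Mymk was 1.70. The arrays of replicate 3 were the lowest of each treatment, as for Mymk, but the F test did not pass (adjusted p = 0.444) and the difference between replicates 1 and 3 was 0.17 (SE 0.09). BMP6 lay above vehicle by 0.07 (SE 0.09, limma adjusted p = 1), with a 95% interval of 0.912-fold to 1.21-fold.

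The genes whose profile over the 6 arrays was most like that of Mymk were, by Pearson correlation among 158 genes that ranged at least 50% as widely, Myl4 (0.997), Myog (0.995), Myh3 (0.992), Actc1 (0.987) and Cavin4 (0.985). Myog encodes myogenin, the transcription factor of terminal differentiation, Myh3, Myl4 and Actc1 encode embryonic myosin heavy chain, a myosin light chain and cardiac actin of early sarcomeres, and Cavin4 encodes a muscle caveolar protein. By title number the arrays came as 3 pairs, so these correlations rest on few separate samples and are given as a description. Their log2 differences between replicates 1 and 3 ran from 1.02 for Cavin4 to 2.92 for Myh3, which follows from their choice by likeness to Mymk. Of the 158 genes, 23 correlated with Mymk above 0.9.

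Myogenin itself stood at 8.65, 8.33 and 6.85 in BMP6 and at 8.75, 7.94 and 7.03 in vehicle, and so followed Mymk by replicate number. By contrast the log2 difference between replicates 1 and 3 was 0.00 (SE 0.09) for Myod1 and 0.02 (SE 0.09) for Pax7. Myf5, a determination factor of undifferentiated myoblasts, was called between replicate numbers with the opposite lean, 0.39 lower in replicate 1 than in replicate 3 and 0.68 lower in replicate 2 than in replicate 3 on the log2 scale (F test adjusted p = 0.0295). For Myf5 replicates 2 and 3 differed by a call (adjusted p = 0.0343) and replicates 1 and 3 did not (0.0975).

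Marker lists of muscle stem cells, myofibres and other cells were also read by replicate number. Of 10 muscle stem cell markers 1 was called, Myf5, against 0.392% of all genes. In limma's F test 3 had an unadjusted p under 0.05, Myf5, Cdh15 and Itga7, against 14% of all genes. For replicate 1 minus replicate 3, Cdh15 stood at -0.30 and Itga7 at -0.33, while Des stood at 0.27. The list median of this difference was -0.07. Of 6 myofibre markers 3 were called between replicate numbers, against 0.392% of all genes. These were Myl1, Acta1 and Myh1, all higher in replicate 1 than in replicate 3, by 2.30, 1.06 and 1.00. All 6 had an unadjusted p under 0.05 in limma's F test, against 14% of all genes. Their list mean was 8.14, 7.87 and 7.48 in BMP6 replicates 1, 2 and 3 and 8.06, 7.95 and 7.40 in vehicle. The sign was opposite for 2 of the 6, Myh4, a fast adult myosin (-0.56, adjusted p = 0.0325 for replicates 1 and 3), and Ckm, muscle creatine kinase (-0.33, adjusted p = 0.141). Of 9 fibro-adipogenic markers 2 were called, against the same 0.392% of all genes. These were Dcn, lower in replicate 1 than in replicate 3 by 0.79 on the log2 scale, and Cd34, which was lowest in replicate 2. The fibro-adipogenic list mean lay between 6.18 and 6.43 in all arrays. None of 9 endothelial or 7 immune markers was called. At an unadjusted limma p under 0.05 there were 0 and 1, against 14% of all genes. Which cells carried these markers, and the part of the cell mix in the Mymk difference, were not tested.

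**Figure D2:**
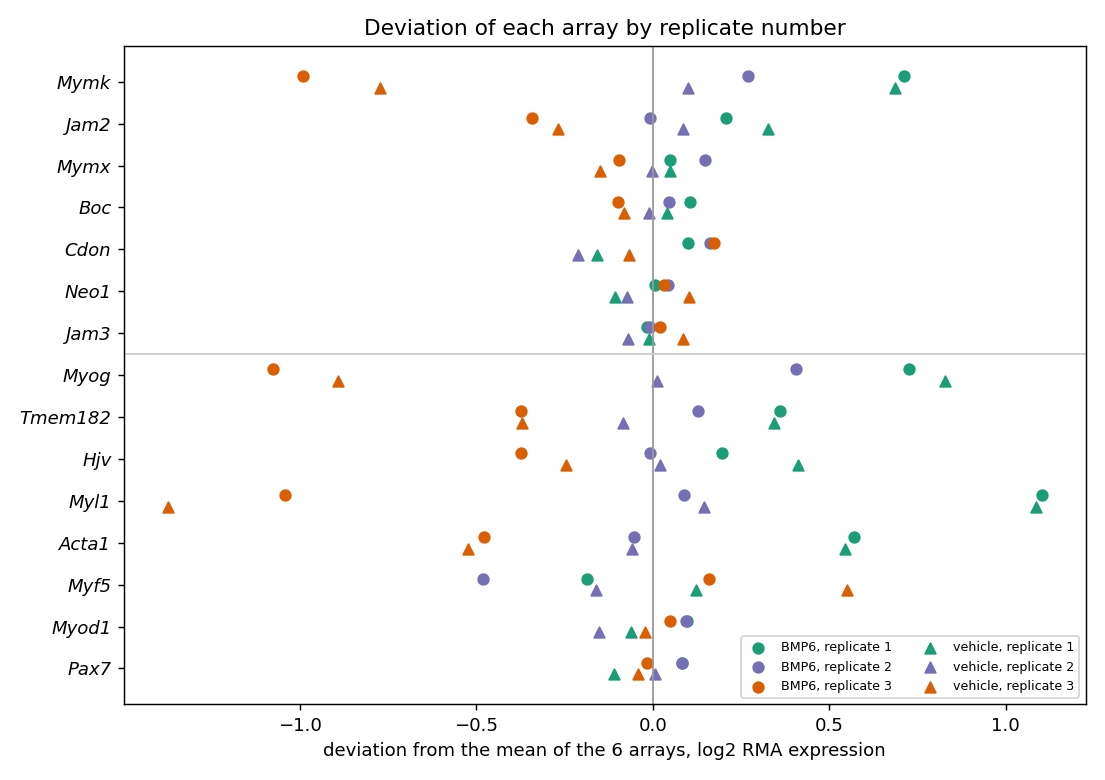
Deviation of each array from a gene's mean over 6 arrays (x axis, log2 RMA expression), with colour for replicate number and circles for BMP6, triangles for vehicle. Members lie above the grey line and other genes below it. Mymk, Jam2, Myog, Tmem182, Hjv, Myl1 and Acta1 have both replicate 3 arrays at the low end, and Myod1 and Pax7 lie close to 0.

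Cdon, the receptor that links cadherin contacts between myoblasts to p38 and that also binds hedgehog ligands, was the member nearest to a difference with BMP6 on both of its probe sets. The first stood at 10.06, 10.13 and 10.14 in BMP6 and at 9.81, 9.75 and 9.90 in vehicle. All BMP6 values lay above all vehicle values, and the difference was 1.22-fold (95% interval 1.09 to 1.37; log2 0.29, SE 0.07). The limma p was 0.00313, and after adjustment over the 20163 genes it missed the threshold (adjusted p = 0.891, or 0.492 with the replicate block). Each of the pairs had BMP6 higher, by 0.26, 0.37 and 0.24. Fibro-adipogenic markers had a list median of -0.13 with BMP6, while Dpt (0.15) and Col3a1 (0.03) were higher. Of these 9 markers 3 lay wholly below vehicle and 0 wholly above, where 7.71% of all genes did not overlap in either direction. The part of such cells in the Cdon values was not tested.

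The second Cdon probe set stood at 6.28, 6.43 and 6.60 in BMP6 and at 5.19, 5.41 and 5.82 in vehicle. Again every BMP6 array lay above every vehicle array. The 3 vehicle values lay above the 95th percentile of the olfactory receptor means (4.75) but below the highest of them (5.88), so they may not be above background. The difference as measured was 1.95-fold (95% interval 1.46 to 2.59; log2 0.96, SE 0.17), with 1.09, 1.02 and 0.78 within replicates 1, 2 and 3. The BMP6 mean lay 1.47-fold above 5.88, a level of other probe sets, which sets no bound on the BMP6 effect. In the fit over all 34760 probe sets, of which 3 (0.00863%) were called, it had the 47th lowest p and did not pass (limma adjusted p = 0.775, or 0.500 with the replicate block). Among all probe sets 3.89% had BMP6 wholly above vehicle. In a fit chosen after seeing the data, over the 21893 probe sets with a symbol, the adjusted p was 0.102, or 0.00248 with the replicate block and 0.120 when blocked by the mouse that each source name gives. The call therefore turned on the probe sets tested and on how the samples were paired.

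The gap between the Cdon probe sets was -3.67 ± 0.12 in BMP6 and -4.34 ± 0.27 in vehicle (second minus first, log2, mean ± SD, n = 3). The measured effects lay 0.67 apart. An exact permutation test cannot decide whether the effects differ, since its smallest two-sided p over 20 splits of 6 arrays is 0.10. No conclusion is drawn from it, and a difference in effect between the probe sets is not claimed. Of 907 genes with several probe sets, 8 (0.882%) had effects at least this far apart, and the median spread was 0.0899. With the mean of its probe sets Cdon differed by 0.63 (limma adjusted p = 0.105). Where the probe sets lie in the gene is not stated.

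Promoter windows, from 250 bases before to 50 bases after a RefSeq start (GRCm38.p6), were at hand for 2 of the 7 genes, Cdon and Neo1. They are shown because Cdon was nearest to a difference with BMP6 and Neo1, a receptor of the same family, was not near one. Capitals mark GTCT or its reverse complement AGAC, the short element that SMAD proteins are known to bind, and GGCGCC, a GC-rich SMAD1 and SMAD5 element. The Cdon window is chr9:35451826-35452125 on the plus strand and the Neo1 window chr9:59036392-59036691 on the minus strand, both written 5′ to 3′.
Cdon: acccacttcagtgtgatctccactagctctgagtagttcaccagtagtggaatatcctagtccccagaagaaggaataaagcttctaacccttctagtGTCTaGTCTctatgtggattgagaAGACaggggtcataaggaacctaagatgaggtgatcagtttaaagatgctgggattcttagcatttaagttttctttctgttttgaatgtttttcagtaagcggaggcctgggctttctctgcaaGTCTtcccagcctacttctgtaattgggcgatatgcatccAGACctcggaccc
Neo1: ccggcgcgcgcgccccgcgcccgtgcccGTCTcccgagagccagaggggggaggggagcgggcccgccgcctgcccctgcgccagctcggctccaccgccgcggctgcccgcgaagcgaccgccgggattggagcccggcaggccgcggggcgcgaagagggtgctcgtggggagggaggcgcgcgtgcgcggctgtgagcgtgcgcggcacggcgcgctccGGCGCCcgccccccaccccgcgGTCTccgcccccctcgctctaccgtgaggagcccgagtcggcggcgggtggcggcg

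The Cdon window held 5 GTCT sites on both strands together and no GGCGCC, and the Neo1 window 2 GTCT sites and 1 GGCGCC, with no overlap between marked sites. Of 32851 windows of this length 88% held GTCT, 8.79% held it 5 times or more, and 11.9% held GGCGCC. G and C made up 44.7% of the Cdon window and 82.7% of the Neo1 window. The Cdon window lies inside the RefSeq gene and not at its outer end. Which start these cells used was not measured, and a match of letters does not show binding.

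Boc, the close relative and partner of Cdon, stood at 6.68, 6.62 and 6.48 in BMP6 and at 6.61, 6.56 and 6.49 in vehicle. The groups overlapped and differed by 0.04 (SE 0.08, 95% interval 0.903-fold to 1.16-fold, limma adjusted p = 1). Its arrays kept the order of Mymk by replicate number within each treatment, but over a range of only 0.20, and the F test did not pass (adjusted p = 0.555).

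Neo1, neogenin, a receptor for netrins and for the repulsive guidance molecules that also serve as BMP co-receptors, stood at 8.66, 8.70 and 8.69 in BMP6 and at 8.55, 8.58 and 8.76 in vehicle. BMP6 was above vehicle in 2 of 3 pairs and the mean difference was 0.05 (SE 0.08, 95% interval 0.916-fold to 1.17-fold, limma adjusted p = 1). Replicate numbers did not differ by a call (adjusted p = 0.732). The 95% intervals for Mymx, Boc, Neo1 and Jam3 lay within 1.21-fold in either direction, so a larger change of these probe sets would lie outside them.

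Jam2, the adhesion molecule JAM-B, which with its partner JAM-C is known from zebrafish to be needed for myoblast fusion, followed the replicate numbers at a smaller size than Mymk. It stood at 8.30, 8.09 and 7.75 in BMP6 and at 8.42, 8.18 and 7.83 in vehicle. Both arrays of replicate 3 lay below the other 4 arrays. Replicate 1 lay 1.49-fold above replicate 3 (log2 0.57, SE 0.09, limma adjusted p = 0.0200), a difference past the threshold, and with Mymk made 2 of the 7 higher in replicate 1, against 0.451% of all genes. The F test of all 3 numbers missed it (adjusted p = 0.0540, or 0.851 with the mouse of the source names) and passed in 3 of 16 alternative settings. With BMP6 Jam2 was lower in each pair, by -0.12, -0.09 and -0.07. The mean difference of -0.10 (SE 0.17, or 0.07 with the replicate block) did not pass (limma adjusted p = 1, or 0.961).

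Jam3, which encodes JAM-C, the binding partner of JAM-B, did not share this profile. It stood at 7.53, 7.54 and 7.57 in BMP6 and at 7.54, 7.48 and 7.64 in vehicle, a range of 0.16. Neither the treatments (-0.0025, SE 0.07, limma adjusted p = 1) nor the replicate numbers (adjusted p = 0.796) differed by a call.

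Among the members themselves, Mymk correlated over the 6 arrays at 0.967 with Jam2, 0.957 with Boc and 0.810 with Mymx, and at -0.223 with Cdon, -0.621 with Neo1 and -0.614 with Jam3. These values share the same 3 pairs of arrays and the same scaling, and are a description. The genes most like Jam2, of 7259 that ranged at least 50% as widely, were Evx1 (0.994), Fst (0.993), Rbp2 (0.991), Neurl1a (0.990) and Cilp (0.988). Fst encodes follistatin, a secreted protein that binds myostatin, activins and some BMPs, and it stood at 6.38, 6.20 and 5.99 in BMP6 and 6.46, 6.32 and 6.08 in vehicle. Evx1, Rbp2 and Cilp had means of 5.40, 5.08 and 5.76, below the highest olfactory and vomeronasal receptor mean (5.88), so they may not be above background. Of the 7259 genes, 334 correlated above 0.9. Those most like Mymx were Sema3a (0.994), Col5a1 (0.988), Lipg (0.987), 2410124H12Rik (0.986) and Trav14-1 (0.984). Lipg, 2410124H12Rik and Trav14-1 had means of 5.52, 4.24 and 2.95, also below 5.88. At a range as small as that of Mymx, 18088 genes qualified.

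**Figure D3:**
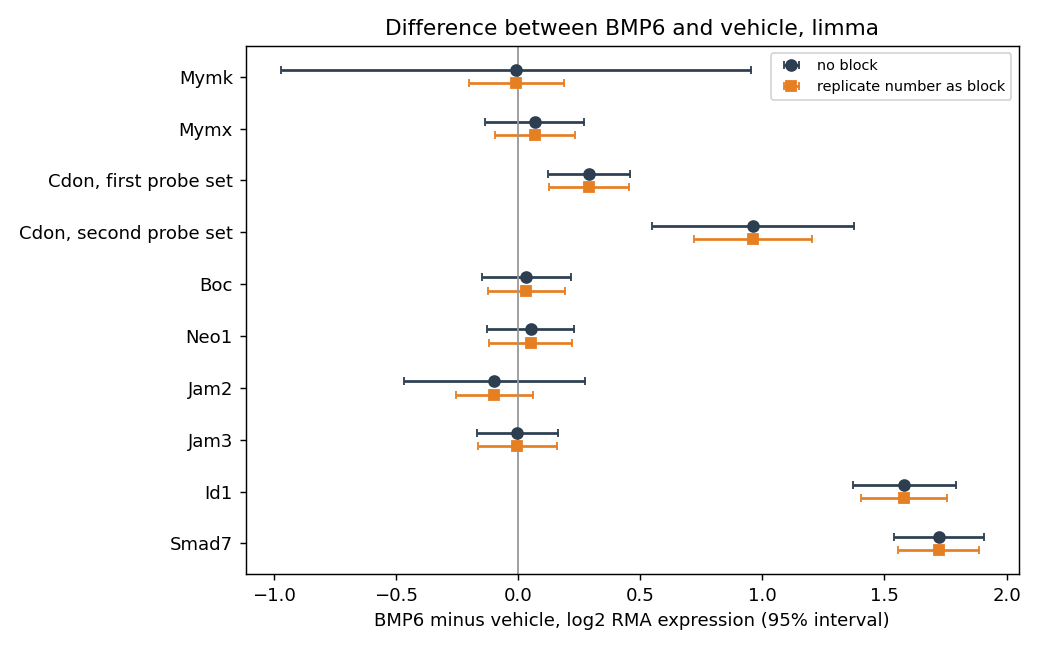
BMP6 minus vehicle on the log2 scale (x axis) with 95% intervals of the limma fits, without a block (circles) and with replicate number as a block (squares). Id1 and Smad7 mark genes that responded. The Mymk interval narrows from 0.510 to 1.94 (fold) without the block to 0.869 to 1.14 with it, and both Cdon probe sets lie to the right of 0.

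Other genes of the same processes were read from gene lists. Between treatments 0 genes of any list below were called. Of 23 measured genes for membrane and adhesion steps of fusion, the lowest p belonged to Myof, myoferlin, a membrane repair and fusion protein (log2 0.09, SE 0.07), and to the cadherin Cdh2 (0.09, SE 0.07), and 0 had an unadjusted limma p under 0.05. The list median was 0.02, where that of all genes was -0.0013. Tmem182, a muscle membrane protein known in mice to restrain fusion, was the 1 gene of these 23 called between replicate numbers, against 0.392% of all genes. It stood at 8.14, 7.91 and 7.41 in BMP6 and 8.12, 7.69 and 7.41 in vehicle (F test adjusted p = 0.0302), lowest in replicate 3. In the F test 6 of the 23 had an unadjusted p under 0.05, against 14% of all genes. Between replicates 1 and 3 alone, 2 of the 23 were called higher in replicate 1, against 0.451% of all genes.

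Of 26 genes for actin remodelling and small GTPases in fusion, 0 were called in either comparison. Between treatments 0 had an unadjusted limma p under 0.05, and the unconventional myosin Myo10 stood at 0.13 (SE 0.07) and the phospholipase Pld1 at 0.10 (SE 0.08). Between replicate numbers 2 had an unadjusted p under 0.05, against 14% of all genes: Dock1, an activator of Rac (replicate 1 minus replicate 3, -0.30, SE 0.09), and Arhgap26 (0.32, SE 0.11).

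Of 12 effectors of Cdon signalling, 1 had an unadjusted limma p under 0.05 between treatments, Map2k3, a kinase that activates p38 (log2 0.22, SE 0.08, adjusted p = 1). That is 1 of 12, against 3.17% of all genes. Map2k3 was 1 of 3 genes of the list with BMP6 wholly above vehicle, against 3.84% of all genes. The kinase Abl1 stood at 0.15 (SE 0.10), and the list median was 0.07. Between replicate numbers 0 passed, with Tcf12, an E protein that partners MyoD, at -0.27 (SE 0.09) and the p38 scaffold Spag9 at -0.21 (SE 0.09) for replicate 1 minus replicate 3.

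Of 10 hedgehog, netrin and RGM ligands 0 were called in either test over all 3 numbers or between treatments. Hjv, hemojuvelin, an RGM and BMP co-receptor of muscle and liver, followed Mymk, at 6.52, 6.32 and 5.95 in BMP6 and 6.74, 6.34 and 6.08 in vehicle. Its F test gave an adjusted p of 0.0532 in limma, and replicates 1 and 3 differed by 0.61 (SE 0.09, adjusted p = 0.0191). Rgma, another RGM, stood at -0.20 (SE 0.11) with BMP6 and Ntn4 at 0.06 (SE 0.07).

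The 15 hedgehog and netrin receptors and effectors held 0 calls. Gli2, a transcription factor of the hedgehog pathway, was the 1 gene with an unadjusted limma p under 0.05 between treatments (-0.16, SE 0.07, adjusted p = 1), and Smo, the hedgehog signal transducer, stood at 0.09 (SE 0.10). Between replicate numbers Hhip, which sequesters hedgehog ligands, and Unc5d, a netrin receptor, had the lowest p (adjusted p = 0.267 and 0.353). The 10 relatives and partners of the JAM proteins also held 0 calls and 0 genes at an unadjusted p under 0.05 in either limma test. Tjp1, a scaffold of cell junctions, differed between treatments by 0.12 (SE 0.11), Itgb2, a leukocyte integrin chain, by -0.15 (SE 0.09) and Esam, an endothelial adhesion molecule, by -0.07 (SE 0.12).

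Of 13 myogenic regulators 0 were called between treatments, with Myf6, a late myogenic factor, at -0.22 (SE 0.07, adjusted p = 1 in limma) and Myod1 at 0.16 (SE 0.07). Myf6 lay wholly below vehicle and 2 of the 13, Myod1 among them, wholly above, against 7.71% of all genes in either direction. Myf5 differed by -0.31, -0.32 and -0.39 within replicates 1, 2 and 3, without a call (limma adjusted p = 0.297 with the replicate block). Between replicate numbers 2 were called, Myog and Myf5, as given above, against 0.392% of all genes, and 5 had an unadjusted p under 0.05, against 14%.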

How the data were processed

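Total RNA was labelled by a whole-transcript method and hybridised to 6 arrays. The deposited values are log2 expression per probe set, which the authors computed by RMA with oligo (per the submitters' processing notes). RMA corrects background, gives all arrays one distribution and summarises probes, so it hides a change common to most genes. Tool versions, array type, genome build and annotation source are not stated there. The annotated table was used, and the other deposited table differed from it by at most 5.0e-09. The number of arrays limits the precision.

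For each gene the probe set with the highest mean over 6 arrays was kept, with no filter on dim ones. Symbol and Entrez identifier of all 8 member probe sets matched a RefSeq table (GRCm38.p6). limma 3.58.1 in R 4.3.3 (lmFit, eBayes, Benjamini-Hochberg over 20163 genes) compared BMP6 with vehicle without a covariate (4 residual degrees of freedom, 5.72 from the prior), and replicate numbers by a moderated F test with treatment as a term (2 and 7.75). The functions were tested on simulated data. The second Cdon probe set was tested among all 34760 probe sets.

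Named genes were the members, 5 reference genes, and from each list up to 4 called genes per comparison, or the 2 lowest p, of which 1 gene is not reported here. The 5 genes most like Mymk, Mymx and Jam2 came by Pearson correlation. Members and lists were chosen with earlier results of these data known. Kirrel, Hfe2, Amica1 and Mllt4 had no probe set under that name. Marker genes outside this rule are named where they were called between replicate numbers. Others, namely Myh4, Ckm, Cdh15, Itga7, Des, Dpt and Col3a1, are named after their values were seen.

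Pairing was checked by correlating deviations from the group means. Same-numbered samples correlated at 0.315, 0.0475 and 0.434 for numbers 1, 2 and 3. Between unlike numbers the values ran from -0.439 (BMP6 replicate 1, vehicle replicate 3) to 0.179 (BMP6 replicate 1, vehicle replicate 2). The check therefore did not single out the pair of number 2. The source names give numbers 1 and 2 the same mouse in both treatments but not number 3, so the pairing is only partly stated and the fit with replicate number as a block is an alternative. Where nothing shows separate cultures, p-values measure the spread between these samples. Cultures of 1 mouse may share their source. With 2 arrays a replicate number, differences between numbers are differences between these pairs of arrays. What the samples of 1 number share is not stated.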

Additional observations from a re-analysis of the deposited data

How the results depend on the processing

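Of 17 alternative settings for BMP6 against vehicle, none called any of the 7 members. Among the 17 is the other deposited table, whose values are the same, so its result was fixed in advance. The number of genes called was 17 in the main analysis. It was 29 with the replicate block, 32 with a random block on replicate number, 27 with a trended robust prior, 30 among genes above the median level, 3 over all probe sets, 27 with arrays centred on their median, and 7 to 15 when 1 array was left out (7 without BMP6 replicate 2, 10 without BMP6 replicate 1, 9 without vehicle replicate 1 or 2). Small differences changed sign. Mymk stood at 0.36 when blocked by the mouse of the source name, 0.10 without the third pair and -0.40 to 0.49 when 1 array was left out. Jam3 stood at 0.029 without the third pair and at -0.039 to 0.040 with 1 array left out, Boc at -0.0084 to 0.093 and Jam2 at -0.25 to 0.051. Mymx, Cdon and Neo1 kept their sign in all 17. The second Cdon probe set stood at 0.82 to 1.13 with 1 array left out and passed only with the replicate block over probe sets with a symbol (adjusted p = 0.00248), a setting chosen after seeing the data.

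Between replicate numbers 79 genes were called, Mymk among them. The count was 43 without a treatment term, 0 with the mouse of the source names, 287 with a trended robust prior, 663 among genes above the median level, 0 over all probe sets, 265 with arrays centred, 19 without the third pair and 21 to 95 when 1 array was left out, where a number with 1 array is assumed to vary like the others. Arrays whose loss moved it by over 1.5 times were BMP6 replicate 1 (22) and 3 (32) and vehicle replicate 1 (21) and 3 (30). Mymk was called in 13 of 16 settings, among them the other deposited table with its same values. The number of members called was 0 with the mouse of the source names, over all probe sets and without the third pair, and 2, with Jam2 added, under the trended prior, among genes above the median level and with arrays centred. The causes of these shifts were not tested. Dim probe sets, such as the second of Cdon, limit what a missing call can say.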
